A study of Mus musculus with 11 samples.

Results

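Canonical Wnt signaling was followed through 10 genes with which brain endothelial cells (EC) receive and answer Wnt ligands, in single-cell RNA sequencing libraries of R182C-TgN3 and WT-TgN3 mice. The genes were chosen by symbol, 10 of the 32287 rows of the feature table: the receptors and coreceptors Fzd4, Fzd6, Lrp5, Lrp6, Tspan12, Adgra2 and Reck, the transcription factor Lef1, and the feedback targets Axin2 and Apcdd1. Their unique molecular identifiers (UMIs, counts of captured RNA molecules) were summed per mouse over capillary, arterial and venous EC, which together are called barrier EC here, over fenestrated EC, and over the mural cells, namely smooth muscle cells (SMC) and pericytes. Levels are given as CPM, the UMIs of a gene scaled to the same total in every sum. The rule used symbols alone, but these genes and a wider Wnt list were chosen with earlier results of these data known. All 107 genes of the wider list were kept out of the variable genes on which cells were clustered.

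Wnt ligands bind a Frizzled receptor and an LRP coreceptor, which keeps the destruction complex from degrading β-catenin, and β-catenin then switches on target genes together with LEF and TCF factors in the nucleus. In brain endothelium, Wnt7a and Wnt7b signal through a receptor complex with Adgra2 (GPR124) and Reck, while norrin, encoded by Ndp, signals through Fzd4, Lrp5 and Tspan12. This signaling is known to induce and maintain the blood-brain barrier, which the fenestrated vessels of the choroid plexus and the circumventricular organs lack.

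R182C-TgN3 mice (6 animals, labelled CADASIL, Tg350 and TgN3 R182C) carried mutant human NOTCH3, and WT-TgN3 mice (5 animals, labelled Control, Tg100 and TgN3) carried human NOTCH3 without the R182C variant. Both genotypes thus had a human transgene beside mouse Notch3, and none was treated. The labels Tg350 and Tg100 differ along with the variant, so the variant cannot be told apart from the transgenic line. The 6-month-old mice numbered 3 and 3 and the 9-month-old mice 3 and 2, of both sexes. Brain microvessel fragments were enriched with antibodies to CD31, an endothelial surface protein, and 1 droplet library was made per mouse. The libraries came from 4 batches, each with mice of 1 age, so that age and batch cannot be told apart. Mice are numbered within their genotype.

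The genes are given on GRCm38 (mm10) with GENCODE vM21. Fzd4 lies at chr7:89404355-89413134 (+), Fzd6 at chr15:39006034-39038188 (+), Lrp5 at chr19:3584828-3686564 (-) and Lrp6 at chr6:134446476-134566965 (-). Tspan12 lies at chr6:21771395-21852515 (-), Adgra2 at chr8:27085583-27123436 (+) and Reck at chr4:43875530-43944806 (+). Lef1 lies at chr3:131110471-131224356 (+), Axin2 at chr11:108920349-108950783 (+) and Apcdd1 at chr18:62922231-62961179 (+). Each span holds the exons, introns and untranslated regions of the gene, and the deposited counts do not separate them. Fzd6, Tspan12, Adgra2, Lef1 and Axin2 overlap a counted gene on the opposite strand (Brf2 in the case of Adgra2), and whether the counting used strand is not given in the sources used here.

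The libraries held 17550806 to 64215050 UMIs, and 58579 of 66658 barcodes were kept as cells. There were 13163 capillary, 5369 arterial, 5715 venous and 1846 fenestrated EC, 2137 SMC and 701 pericytes, with at least 23 pericytes and 69 fenestrated EC per mouse. The clusters were named from marker levels, so those levels describe the names and do not test them. The tight junction gene Cldn5 averaged 4705 CPM in barrier and 119 in fenestrated EC, Plvap, the diaphragm gene of fenestrae, 1.71 and 2130.1, the contractile gene Acta2 10009 in SMC and the potassium channel gene Kcnj8 621 in pericytes. Human NOTCH3 was 199 to 361 CPM in SMC of R182C-TgN3 and 16.1 to 71.3 in SMC of WT-TgN3 mice. In pericytes it was 642 to 1600 CPM in R182C-TgN3 and 279 to 374 in WT-TgN3 mice. The variant thus cannot be told apart from the level of the transgene. Some libraries stood apart: 966 barcodes occurred in more than 1 library, 350 of them in those of R182C-TgN3 mice 4 and 5, WT-TgN3 mouse 5 gave 212 of the 216 cells of a second fenestrated cluster, and R182C-TgN3 mouse 4 gave 1112 of the 1404 cells of an EC cluster whose median depth was 52.6% of that of its libraries. Without the shared barcodes, or without the second fenestrated cluster, each call on the 10 genes between cell types was the same.

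Promoter windows of RefSeq (GRCm38.p6) were at hand for 5 of the 10 genes, Fzd4, Tspan12, Reck, Lef1 and Axin2. The 250 bases before the start were searched on both strands for the LEF/TCF motif CTTTGNN, where N was A or T, and 14.8% of 32851 windows held at least 1 match. A match lay 121 bases before the start of Reck and 147 bases before a downstream start of Lef1, and none was found in the windows of Fzd4, Tspan12, Axin2 and the other 3 starts of Lef1. Both windows with a match are shown, with the motif in capitals, followed by those of Axin2 and Tspan12, of which the first was lower and the second higher in fenestrated than in barrier EC. They are chr4:43875280-43875529 (+) for Reck, chr3:131156044-131156293 (+) for Lef1, chr11:108920099-108920348 (+) for Axin2 and chr6:21852534-21852783 (-) for Tspan12. A match is a run of letters, and binding was not measured.
Reck: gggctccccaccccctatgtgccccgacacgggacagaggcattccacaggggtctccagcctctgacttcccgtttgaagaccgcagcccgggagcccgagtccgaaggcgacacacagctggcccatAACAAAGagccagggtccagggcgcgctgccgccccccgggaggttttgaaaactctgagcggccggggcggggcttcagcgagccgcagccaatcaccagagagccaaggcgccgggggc
Lef1: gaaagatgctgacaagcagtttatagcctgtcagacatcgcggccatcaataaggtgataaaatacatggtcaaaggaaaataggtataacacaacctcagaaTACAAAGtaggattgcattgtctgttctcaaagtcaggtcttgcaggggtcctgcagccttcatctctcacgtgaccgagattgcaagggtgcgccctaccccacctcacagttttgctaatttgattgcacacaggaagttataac
Axin2: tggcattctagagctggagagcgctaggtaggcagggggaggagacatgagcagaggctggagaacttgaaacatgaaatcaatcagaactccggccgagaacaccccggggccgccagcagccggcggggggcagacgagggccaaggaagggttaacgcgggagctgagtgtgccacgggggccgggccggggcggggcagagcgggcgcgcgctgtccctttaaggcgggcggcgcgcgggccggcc
Tspan12: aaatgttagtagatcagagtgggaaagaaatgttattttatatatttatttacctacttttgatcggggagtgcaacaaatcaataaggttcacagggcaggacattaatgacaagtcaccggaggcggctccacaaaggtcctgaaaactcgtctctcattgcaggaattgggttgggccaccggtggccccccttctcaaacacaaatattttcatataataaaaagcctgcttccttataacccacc

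Barrier and fenestrated EC were compared first. In fenestrated EC the transcription factor Lef1 and the feedback targets Axin2 and Apcdd1 were at 2.84%, 5.31% and 4.84% of their mean barrier level. The other 4 receptor genes were lower as well, whereas the norrin receptor genes Fzd4, Lrp5 and Tspan12 were higher, at 226%, 204% and 331%. With edgeR's quasi-likelihood test, mouse as a block and Benjamini-Hochberg adjustment over all genes, 10 of 10 genes were called at an adjusted p under 0.05, 3 higher and 7 lower, against 51.6% of 11138 genes tested (25.7% higher, 25.9% lower). The median log2 fold change was -1.96 over the 10 genes and -0.01 over all genes. Values of both types did not overlap for any of the 10, as for 15.5% of all genes tested, and the direction was the same in 11 of 11 mice for all 10, as for 27.4% of all.

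**Figure D1:**
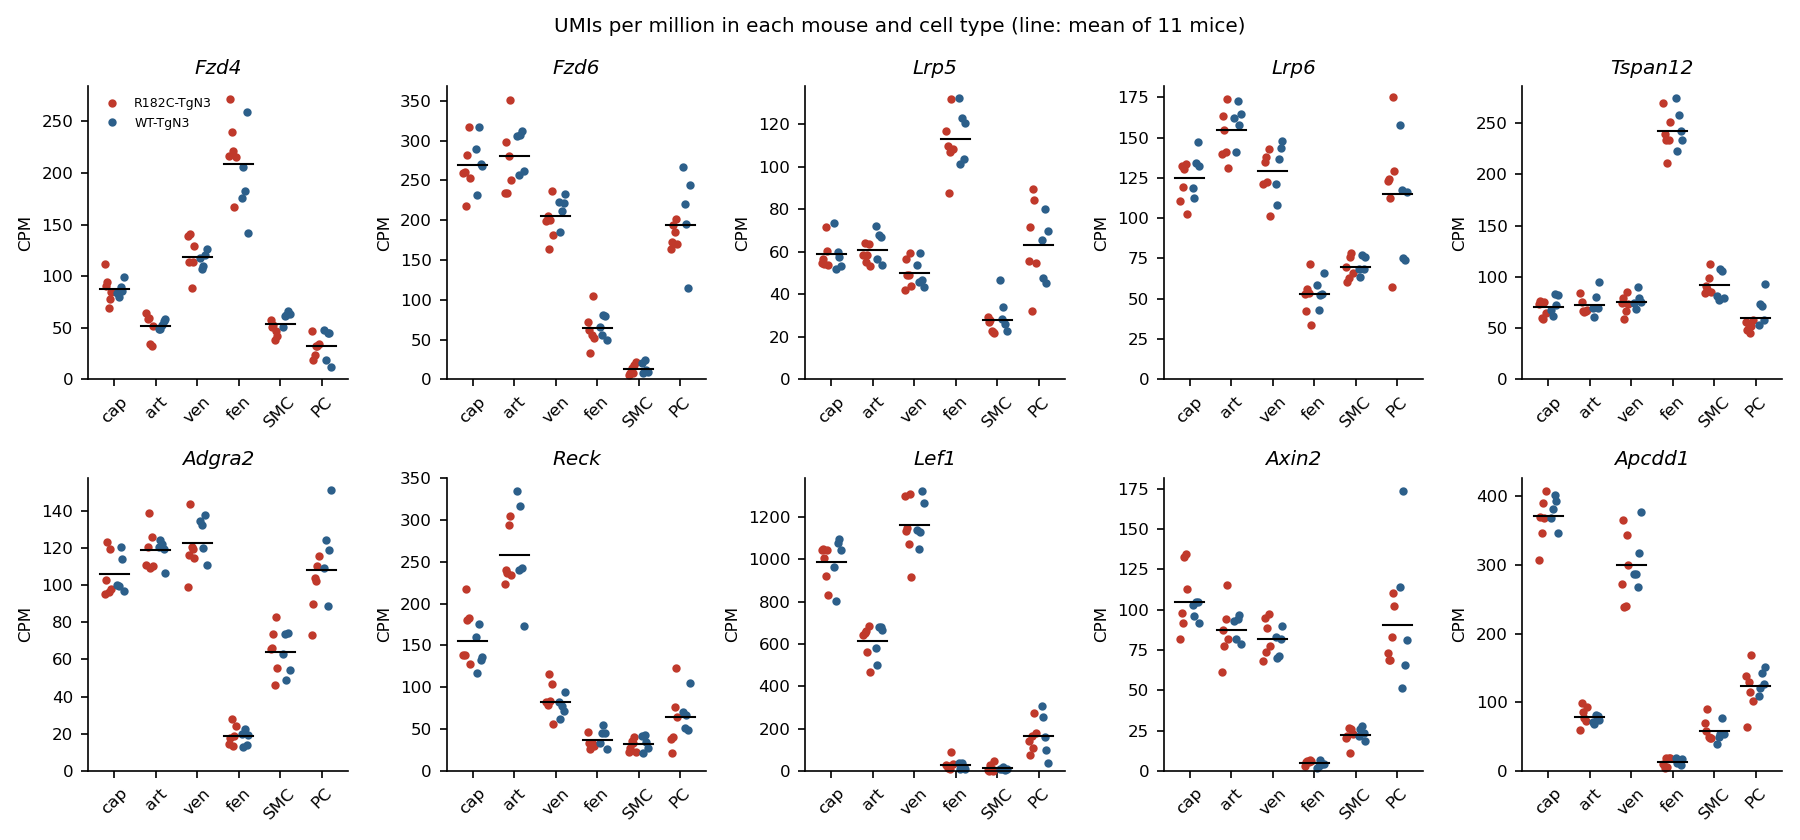
Level of each gene (y axes, CPM, each scaled to its gene and starting at 0) in capillary (cap), arterial (art), venous (ven) and fenestrated (fen) EC, SMC and pericytes (PC), with 1 point per mouse, R182C-TgN3 in red and WT-TgN3 in blue, and a line at the mean of 11 mice. Fenestrated EC lie above all other types for Tspan12 (211 to 275) and near 0 for Axin2 (1.68 to 7.01), and red and blue points overlap.

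Lef1, 1 of the LEF/TCF factors through which β-catenin acts on DNA, ranged from 799 to 1076 CPM in barrier EC, with a median of 998. In fenestrated EC it ranged from 8.002 to 87.98 with a median of 20.7. All fenestrated values lay far below the lowest barrier value. The log2 fold change was -5.38 (SE 0.23, adjusted p = 4.38e-13, edgeR). With each cell thinned to 2000 UMIs, a Lef1 UMI was found in 80.8% ± 3.69 of capillary and 3.30% ± 1.38 of fenestrated EC (SD, n = 11 mice). In microglia, which should lack the gene, the share was 0.895% ± 0.473. Without thinning the shares were 92.7%, 6.80% and 2.50%, at median depths of 4019, 5284 and 5378 UMIs per cell.

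Axin2, a scaffold of the destruction complex that the pathway induces, had 71.3 to 116 CPM in barrier EC and 1.68 to 7.01 in fenestrated EC, the latter from 56 UMIs in all. Its log2 fold change was -4.26 (SE 0.11, adjusted p = 5.42e-16). Apcdd1, a membrane-bound inhibitor of Wnt signaling that is itself a target, had 229.8 to 302 CPM in barrier and 3.49 to 18.9 in fenestrated EC. It was lower by a log2 fold change of -4.39 (SE 0.14). The feedback targets were thus low in every fenestrated sum.

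Adgra2 and Reck, whose products form the Wnt7 receptor complex, were lower together. Adgra2 ranged from 101 to 135 CPM in barrier and from 12.9 to 27.96 in fenestrated EC (log2 fold change -2.64, SE 0.10). Reck, a membrane-anchored glycoprotein gene, ranged from 114 to 179.7 and from 25.5 to 54.3 CPM (log2 fold change -1.97, SE 0.11). The Frizzled receptor gene Fzd6 was 199 to 293 CPM in barrier and 32.8 to 104 in fenestrated EC (log2 fold change -1.95, SE 0.09). For the coreceptor gene Lrp6 the ranges were 108 to 149 and 33.5 to 71.8 CPM (log2 fold change -1.35, SE 0.07), the smallest of the falls.

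Tspan12, a tetraspanin that enhances norrin signaling, was 211 to 275 CPM in fenestrated and 60.9 to 86.1 in barrier EC. It rose most of the 10 genes, by a log2 fold change of 1.74 (SE 0.06, adjusted p = 1.20e-14). The norrin receptor gene Fzd4 was 142 to 271 CPM in fenestrated and 70.6 to 111 in barrier EC (log2 fold change 1.17, SE 0.09). The coreceptor gene Lrp5 was 87.5 to 132 and 49.1 to 64.7 CPM (log2 fold change 1.04, SE 0.05). For all 3 the lowest fenestrated value lay above the highest barrier value.

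The fenestrated EC of WT-TgN3 mouse 5 fell into both fenestrated clusters, which differed in some of the genes. Pooled over cells, Lef1 was 15.9 CPM in the main and 7.05 in the second cluster of this mouse, and 24.7 in the main cluster of the other 10 mice. Tspan12 was 287 and 193 CPM in the 2 clusters of this mouse, both above the barrier range. Fzd4 was 219 CPM in the main but 83.3 in the second cluster, a value inside the barrier range. Lrp5 and Lrp6 were 142 and 85.9 CPM in the second cluster, and 92.7 and 40.1 in the main one. These are values of 1 mouse and were not tested.

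**Figure D2:**
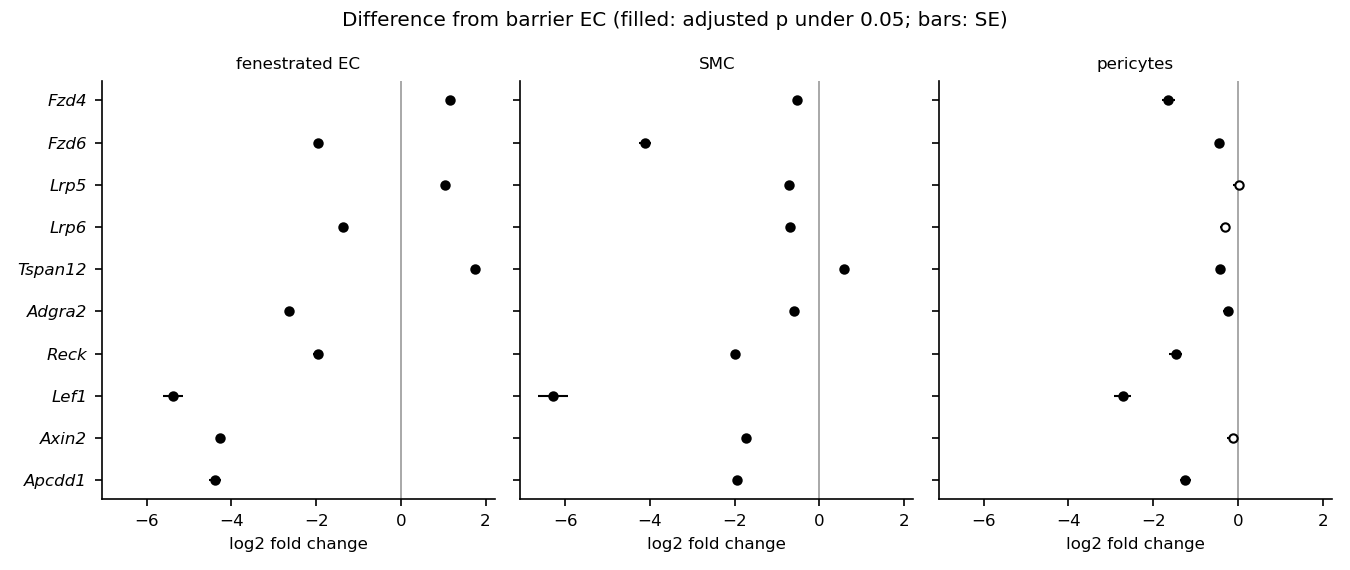
Log2 fold change of each gene (x axis, the same in all panels) in fenestrated EC, SMC and pericytes over barrier EC, with bars for the SE over 11 mice and filled points for an adjusted p under 0.05 (edgeR). Fzd4, Lrp5 and Tspan12 lie to the right of 0 in fenestrated EC, and Fzd6 lies at -4.12 in SMC but at -0.44 in pericytes.

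Of 97 other genes of the Wnt list, 3 had served as cell markers and were set aside, and 52 of the rest were tested between fenestrated and barrier EC. In fenestrated EC 11 were higher, 22 lower and 19 not called, with a median log2 fold change of -0.10. Among feedback targets and inhibitors inside the cell, 5 of 7 were lower and 1 was higher, where 25.9% of all genes were lower and 25.7% higher. Notum, an enzyme gene whose product inactivates Wnt ligands, averaged 37.03 CPM in barrier and 0.469 in fenestrated EC, and Nkd1, a Dishevelled antagonist gene, 132 and 1.66. All 5 tested endothelial genes downstream in the barrier were lower, with a median log2 fold change of -3.57 against -0.01 for all genes. Genes expressed in barrier EC alone also passed the filter on low counts, so such counts of falls are partly set by the filter. Of the signal relay and destruction complex, 3 of 14 genes were higher and 3 lower, shares below those of all genes.

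The ligand gene Wnt5a fell most of this list, from 80.9 to 0.746 CPM (log2 fold change -7.06, SE 0.25). The secreted inhibitor gene Dkk2 averaged 15.1 CPM in barrier EC and had 2 UMIs in all fenestrated EC. Kremen2, a Dkk receptor gene, rose most (3.28, SE 0.29), from 0.631 to 5.99 CPM. The R-spondin gene Rspo3 (1.94, SE 0.42), the cyclin gene Ccnd1 (1.52, SE 0.12) and Tcf7l1 (1.41, SE 0.07) rose as well. Tcf7l1, a LEF/TCF family member known as a repressor, averaged 86.001 CPM in barrier and 225 in fenestrated EC, opposite in direction to Lef1.

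The segments of the vascular tree that share the barrier were compared next. Lef1, Fzd4 and Apcdd1 were lowest in arterial EC, Reck was highest there, and Tspan12 was called between no pair of segments with the gates used here. Arterial EC differed from capillary EC in 7 of 10 genes (3 higher, 4 lower), against 59.2% of 10574 genes tested (29.8% higher, 29.4% lower). Venous EC differed from capillary EC in 8 of 10 genes (3 higher, 5 lower), against 60.1% of 10946 genes tested (29.8% higher, 30.3% lower). For arterial over venous EC the count was 7 of 10 genes (4 higher, 3 lower), against 61.8% of 10850 genes tested (31.2% higher, 30.6% lower). These shares of the 10 genes are near those of all genes. Median depth was 4019 UMIs per cell in capillary, 6284 in arterial and 9990 in venous EC. Leaving out cells over 3 times their library's median UMIs kept 3783 of 5715 venous and 13122 of 13163 capillary EC. The gates that separate the segments use other genes of the same cells, and 3.11% and 4.60% of 33928 EC scored within 0.1 of the arterial and venous gates.

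Apcdd1 differed most, with 59.4 to 98.8 CPM in arterial, 308 to 407 in capillary and 239 to 378 in venous EC. Arterial values lay below those of the other segments without overlap. The log2 fold change was -2.24 (SE 0.04, adjusted p = 7.17e-23) for arterial and -0.33 (SE 0.06, adjusted p = 8.50e-05) for venous over capillary EC.

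Lef1 was 468 to 683 CPM in arterial, 801 to 1095 in capillary and 917 to 1321 in venous EC. Arterial values were again apart from the others, with log2 fold changes of -0.68 (SE 0.03) against capillary and -0.90 (SE 0.03) against venous EC. Venous and capillary values overlapped, and the venous excess of 0.22 (SE 0.03) was seen in 11 of 11 mice. In EC without UMIs of defining mural or microglial markers, which left 8 mice with enough venous cells, it was 0.07, adjusted p = 0.577 (edgeR). That limit kept 2324 of 13163 capillary, 656 of 5369 arterial and 447 of 5715 venous EC. Fzd4 kept the same order, with 32.5 to 64.3 CPM in arterial, 68.9 to 111 in capillary and 88.1 to 140.5 in venous EC, and a log2 fold change of -1.17 (SE 0.05) for arterial over venous EC.

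Reck ran the other way, with 173 to 335 CPM in arterial, 117 to 218 in capillary and 55.4 to 116 in venous EC. Arterial and venous values did not overlap (log2 fold change 1.66, SE 0.09), and both steps were seen in 11 of 11 mice. Its partner gene Adgra2 did not share this order, with 119 ± 9.40 CPM in arterial, 106 ± 10.99 in capillary and 123 ± 13.2 in venous EC (SD, n = 11). Adgra2 was higher than in capillary EC by 0.18 (SE 0.03) in arterial and by 0.19 (SE 0.04) in venous EC, and the first of these was not called with subtypes taken from subclusters (0.06) or in EC without UMIs of other vascular classes (0.14).

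Fzd6 was 206 ± 22.7 CPM in venous EC, lower than 269.8 ± 30.9 in capillary EC (SD, n = 11; log2 fold change -0.40, SE 0.03). Lrp6 was highest in arterial EC with 155 ± 14.5 CPM (log2 fold change 0.31, SE 0.03 over capillary EC), and Lrp5 was lower in venous than in capillary EC (-0.25, SE 0.05). Axin2 was highest in capillary EC with 105 ± 16.5 CPM, against 87.4 ± 13.7 in arterial (-0.26, SE 0.04) and 81.5 ± 10.2 in venous EC (-0.36, SE 0.05). In EC without UMIs of defining mural or microglial markers, where far fewer cells remained, neither Axin2 difference was called (-0.24, SE 0.11 and -0.22, SE 0.11). Lrp5 for venous over capillary EC was not called there either, at -0.33. Tspan12 averaged 70.7, 72.9 and 75.1 CPM in capillary, arterial and venous EC, with adjusted p from 0.0992 to 0.846 (edgeR). Without WT-TgN3 mouse 5, Tspan12 was called for venous over capillary EC at 0.09, and without R182C-TgN3 mouse 4, Lrp5 was called for arterial over capillary EC at 0.10 instead of 0.07. Axin2 for arterial over venous EC was 0.10 and was called, at 0.13, without any 1 of R182C-TgN3 mice 1 and 2 and WT-TgN3 mouse 5. With a stricter gate on the segments all 3 were called, Tspan12 for venous over capillary EC at 0.12, adjusted p = 0.0243, Lrp5 for arterial over capillary EC at 0.18, adjusted p = 0.00542 and Axin2 for arterial over venous EC at 0.29, adjusted p = 0.00104 (edgeR).

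**Figure D3:**
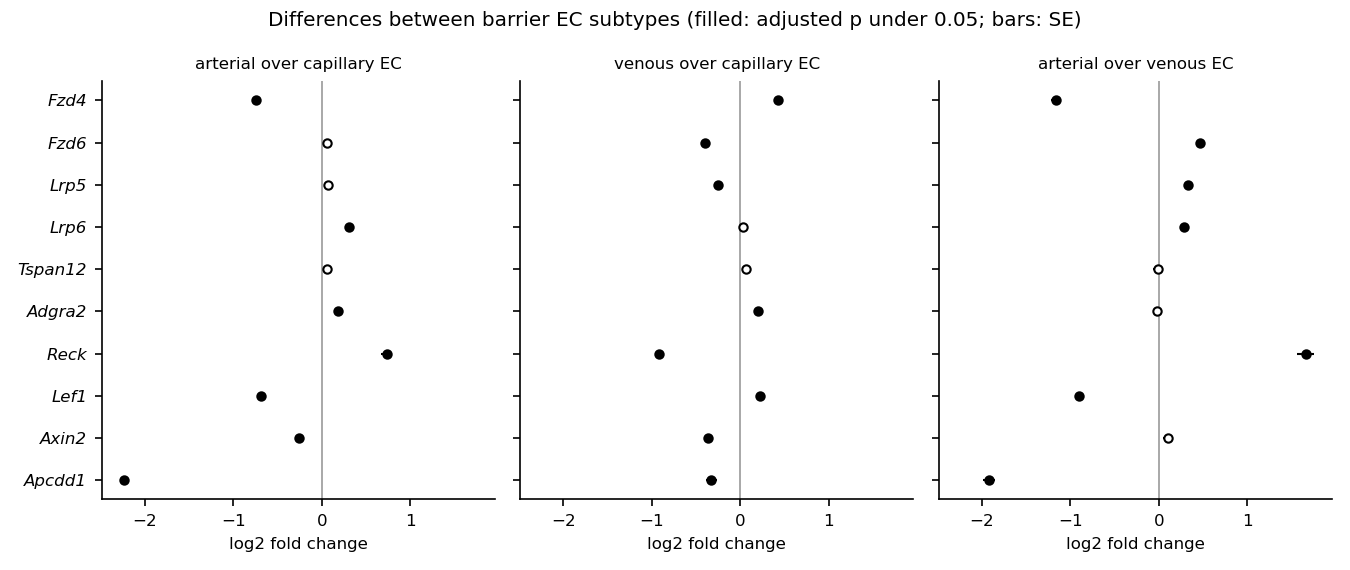
Log2 fold change of each gene (x axis, the same in all panels) between arterial, capillary and venous EC, with bars for the SE over 11 mice and filled points for an adjusted p under 0.05 (edgeR). Apcdd1 lies farthest left in arterial over capillary EC (-2.24), and Reck (1.66) and Fzd4 (-1.17) lie on opposite sides of 0 in arterial over venous EC.

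In the wider Wnt list, 20 of 48 tested genes were higher and 17 lower in arterial than in capillary EC, beside 29.8% and 29.4% of all genes. The filter on low counts passes genes expressed in 1 type alone, so genes nearly absent from capillary EC, such as Dkk2, entered through arterial EC. These counts are therefore partly set by the filter. Dkk2 averaged 63.7 CPM in arterial and 0.237 in capillary EC, and the ligand genes Wnt5b and Wnt11 79.4 and 6.02 against 5.54 and 0.238. The Dishevelled antagonist gene Nkd2 was also higher (3.42, SE 0.19), whereas Nkd1 (-1.97, SE 0.06), Wnt5a (-1.72, SE 0.18), Caprin2 (-0.94, SE 0.18) and Notum (-0.83, SE 0.06) were lower.

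In venous EC 23 of 49 tested genes were higher and 11 lower than in capillary EC, beside 29.8% and 30.3% of all genes. Genes nearly absent from capillary EC, such as Nkd2, passed the filter on low counts through venous EC. These counts, and those for arterial over venous EC below, are therefore partly set by the filter. Wnt5a averaged 174 CPM in venous and 14.9 in capillary EC, Nkd2 31.2 and 0.753, and Tcf7l1 133 and 42.1. The receptor gene Ror1 rose by 1.003 on the log2 scale, while Ccnd1 (-1.55), Notum (-1.12), Fzd3 (-0.64) and Tcf7 (-0.63) were lower. For arterial over venous EC 19 of 50 were higher, led by Dkk2 (7.05), Wnt11 (5.47), Ccnd1 (4.03) and Wnt5b (3.77), and 19 were lower (all genes 31.2% and 30.6%), led by Wnt5a (-5.21), Ror1 (-2.54), Nkd2 (-1.92) and Nkd1 (-1.91).

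Mural cells were then set against barrier EC. SMC had little Lef1 and Fzd6, and Tspan12 was the single gene above its barrier level. They differed in 10 of 10 genes (1 higher, 9 lower), against 76.7% of 11445 genes tested (36.8% higher, 39.9% lower). Genes expressed in barrier EC alone also passed the filter on low counts, so the count of falls is partly set by it. Normalization by trimmed means (TMM) moved log2 fold changes in this comparison by 0.21 relative to library totals, and all 10 calls and directions were the same without it.

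Lef1 in SMC ranged from 0 to 48.5 CPM with a median of 7.90 (log2 fold change -6.29, SE 0.35). Fzd6 ranged from 5.50 to 24.4 CPM, far below its barrier range of 199 to 293 (log2 fold change -4.12, SE 0.14). Reck (-2.001, SE 0.06), Apcdd1 (-1.94, SE 0.10) and Axin2 (-1.73, SE 0.09) followed, with Apcdd1 at 57.8 ± 15.1 and Axin2 at 22.3 ± 4.72 CPM in SMC (SD, n = 11). The falls of Lrp5 (-0.73), Lrp6 (-0.69), Adgra2 (-0.60) and Fzd4 (-0.52) were smaller. Tspan12 was 77.8 to 113 CPM in SMC, higher than in barrier EC in 10 of 11 mice (log2 fold change 0.57, SE 0.06).

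Pericytes differed from barrier EC in 7 of 10 genes (0 higher, 7 lower), against 50.3% of 11027 genes tested (22.5% higher, 27.8% lower). The filter on low counts bears on this count of falls as well. Pericyte sums were also smaller, with 86035 to 711455 UMIs per mouse against 495928 to 3574970 in SMC. Lef1 in pericytes ranged from 34.9 to 306 CPM with a median of 160.1 (log2 fold change -2.72, SE 0.20). Fzd4 (-1.64, SE 0.16), Reck (-1.47, SE 0.16) and Apcdd1 (-1.24, SE 0.12) were lower too. Fzd6 was 193 ± 41.02 CPM (SD, n = 11; -0.44, SE 0.10), Tspan12 59.6 ± 14.2 (-0.41, SE 0.11) and Adgra2 108 ± 20.6 (-0.24, SE 0.10). The call of Adgra2 was lost without any 1 of R182C-TgN3 mice 1, 2 and 3 and WT-TgN3 mice 1 and 3, at values from -0.25 to -0.22, with library totals (-0.19), without cells of high UMIs (-0.20) and in WT-TgN3 mice alone (-0.15). In WT-TgN3 mice alone Tspan12 (-0.26) and Fzd6 (-0.42) were not called either.

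Axin2 averaged 90.2 ± 33.9 CPM in pericytes and 90.3 ± 11.5 in barrier EC (SD, n = 11; log2 fold change -0.12, SE 0.13, adjusted p = 0.469, edgeR). Lrp6 (-0.30, SE 0.13, adjusted p = 0.0536) and Lrp5 (0.02, SE 0.13, adjusted p = 0.935) were not called either. Lrp6 was called without any 1 of R182C-TgN3 mice 1, 5 and 6 and WT-TgN3 mouse 1, at values from -0.37 to -0.34. It was also called with DESeq2 size factors (-0.30, adjusted p = 0.0464), without the filter on low counts (-0.38, adjusted p = 0.0233), with all genes (-0.31, adjusted p = 0.0434) and with subclusters (-0.34, adjusted p = 0.0257), all by edgeR.

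Endothelial RNA was present in the mural sums, and more so in pericytes. The summed level of 8 endothelial markers was 1145 to 5657 CPM in pericytes, 61.4 to 1002 in SMC and 17289.6 to 20345 in barrier EC, so that the means of pericytes and SMC were 17.2% and 1.66% of the barrier mean. All 8 markers had UMIs in both mural types. Lef1 in pericytes was 16.7% of its barrier level, beside 79.2% for Fzd6 and 99.9% for Axin2. WT-TgN3 mouse 1 had both the most Lef1 and the most endothelial RNA in its pericytes, and R182C-TgN3 mouse 6 had both in its SMC.

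The comparison was repeated in mural cells without a UMI of 4 defining endothelial markers (Cldn5, Pecam1, Flt1 and Cdh5), which left 334 of 701 pericytes and 1452 of 2137 SMC. Pooled over mice, Lef1 was 27.2 instead of 164 CPM in pericytes and 2.33 instead of 10.5 in SMC. At least 20 such pericytes were left in 6 of 11 mice, and over these the log2 fold change of Lef1 became -4.82. Axin2 was 88.8 instead of 84.8 CPM in all such pericytes pooled, Lrp6 117 instead of 115, Adgra2 96.9 instead of 104 and Fzd6 169 instead of 189. Apcdd1 was 86.04 instead of 120.04 and Reck 37.1 instead of 53.7 CPM. Axin2 and the receptor genes Lrp6, Adgra2 and Fzd6 were thus nearly as high in pericytes without these endothelial UMIs, and Lef1 was not.

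**Figure D4:**
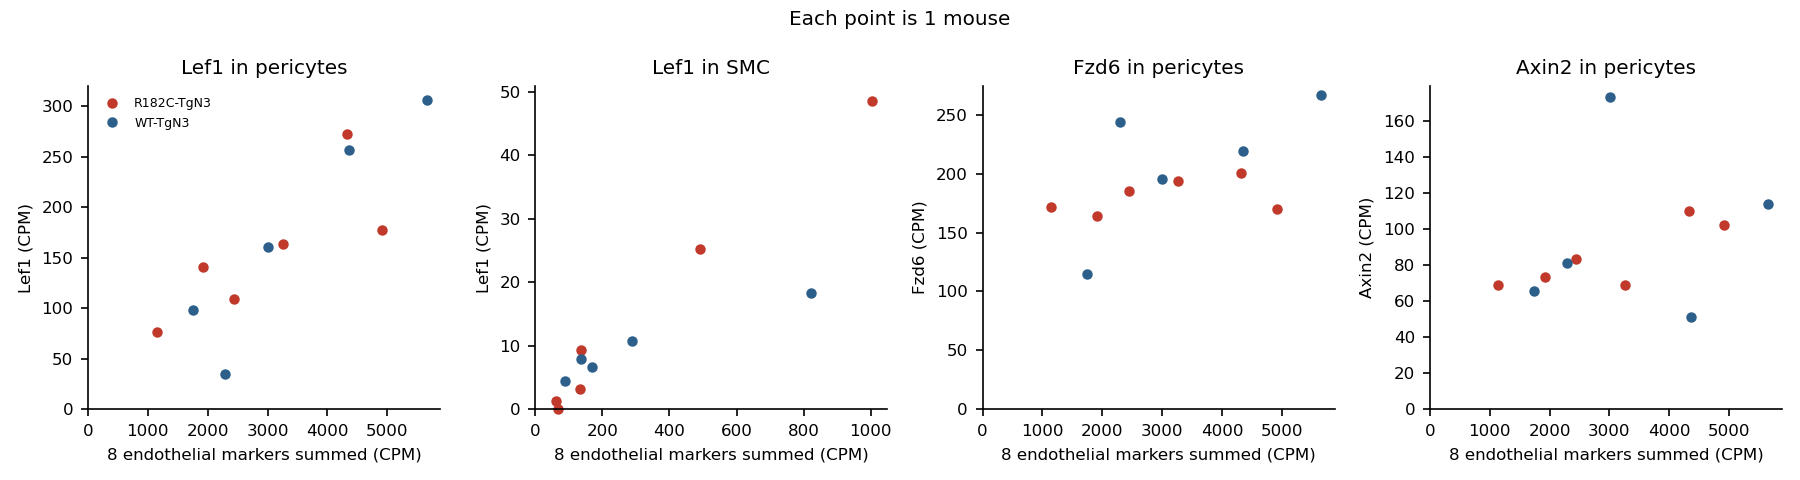
Level of Lef1 in pericytes and in SMC and of Fzd6 and Axin2 in pericytes (y axes, CPM) against the summed level of 8 endothelial markers in the same sum (x axes, CPM), with 1 point per mouse, R182C-TgN3 in red and WT-TgN3 in blue. The sums with most endothelial RNA have the most Lef1 (306 CPM in pericytes, 48.5 in SMC). Fzd6 lies between 115 and 267 CPM in all pericyte sums, and its highest value is also in the sum with most endothelial RNA.

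SMC and pericytes also differed from each other, in 10 of 10 genes (2 higher, 8 lower), against 55.5% of 6979 genes tested (27.9% higher, 27.7% lower). Fzd6 (-3.65, SE 0.17) and Axin2 (-1.60, SE 0.16) were lower in SMC without overlap of their values, and Lef1 was lower with overlap (-3.53, SE 0.31). Fzd4 (1.03, SE 0.17) and Tspan12 (0.95, SE 0.12) were higher in SMC. Lrp5 (-0.78), Apcdd1 (-0.73), Reck (-0.56), Lrp6 (-0.43) and Adgra2 (-0.41) were lower. In mural cells without endothelial UMIs, with 6 mice, 5 of 9 genes tested were called, beside 2556 of all 5152 genes tested. Reck was 0.19 in these cells and not called. With at least 50 cells, which also left 6 mice, Reck (-0.25, adjusted p = 0.352) and Adgra2 (-0.28, adjusted p = 0.119) were not called by edgeR. Lrp6 (-0.28) and Adgra2 (-0.26) were not called without the filter on low counts, nor were Reck (-0.47) and Adgra2 (-0.27) in R182C-TgN3 mice alone, or Lrp5 (-0.62) and Lrp6 (-0.29) in WT-TgN3 mice alone. TMM moved this comparison by 0.25 relative to library totals.

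Of the wider Wnt list, 22 of 55 tested genes were higher and 25 lower in SMC than in barrier EC, beside 36.8% and 39.9% of all genes. Other receptor genes had 8 of 9 higher, with Fzd2 at 55.7 CPM in SMC and 0.131 in barrier EC, Ror1 at 302 and 3.06 and Fzd7 at 19.4 and 0.884. The filter on low counts passes genes expressed in 1 type alone, so genes nearly absent from barrier EC, such as Fzd2, entered through SMC. The count of 8 of 9 is therefore partly set by the filter. The nuclear factor gene Pygo1 rose by 5.48 on the log2 scale. The efflux transporter gene Abcb1a (-6.17), the transcription factor gene Foxq1 (-5.85), Dkk2 (-5.76, 4 UMIs in SMC) and Notum (-5.67) fell most.

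In pericytes 14 of 51 were higher and 17 lower than in barrier EC, beside 22.5% and 27.8% of all genes. Genes nearly absent from barrier EC, such as Sfrp2, passed the filter on low counts through pericytes. These counts, and those for SMC over pericytes below, are therefore partly set by the filter. The secreted inhibitor gene Sfrp2 averaged 26.4 CPM in pericytes and had 2 UMIs in all barrier EC, and Ror1 (6.70), Pygo1 (5.72) and the pseudokinase receptor gene Ptk7 (5.69) rose too. Wnt5a (-4.53), Sox17 (-2.84), Abcb1a (-2.82) and Foxq1 (-2.79) were lower. In SMC 7 of 33 were higher than in pericytes, led by Wnt5b (3.96), Nkd1 (3.15), Fzd2 (2.75) and Tcf7l1 (0.995), and 15 were lower (all genes 27.9% and 27.7%), led by Abcb1a (-3.29), Foxq1 (-2.95), Kremen1 (-2.45) and Tnfrsf19 (-2.29). The norrin gene Ndp averaged 1.15 CPM in pericytes and 0.0644 in barrier EC, and Wnt7a had 3 UMIs in all barrier EC. In the pericyte sums of single mice 3 UMIs equal 4.22 to 34.9 CPM, so the Ndp mean there rests on few UMIs.

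The mean levels of each gene were ordered from high to low over the 6 cell types, and neighbours in the order were compared with a 2-sided exact permutation test that flips the sign of the difference within each mouse (smallest possible p 0.000977), adjusted over 50 pairs. Neighbours not named here were past an adjusted p of 0.05. Fzd4 ran from fenestrated through venous and capillary EC to SMC, arterial EC and pericytes, and SMC and arterial EC could not be separated (adjusted p = 0.432, permutation test). Fzd6 ran from arterial through capillary and venous EC to pericytes, fenestrated EC and SMC, without separation of arterial from capillary EC (adjusted p = 0.171, permutation test) or of venous EC from pericytes (adjusted p = 0.432). Tspan12 ran from fenestrated EC to SMC, venous, arterial and capillary EC and pericytes, and the barrier segments were not separated (adjusted p = 0.525 and 0.324, permutation test).

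Lrp5 ran from fenestrated EC to pericytes, arterial, capillary and venous EC and SMC, with pericytes, arterial and capillary EC not separated (adjusted p = 0.695 and 0.315, exact permutation test). Lrp6 ran from arterial EC to venous and capillary EC, pericytes, SMC and fenestrated EC, with venous and capillary EC (adjusted p = 0.215, permutation test) and capillary EC and pericytes (adjusted p = 0.464) not separated. For Adgra2 venous and arterial EC, pericytes and capillary EC came first, with no neighbours among them separated (adjusted p = 0.260, 0.215 and 0.812, permutation test), followed by SMC and fenestrated EC.

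Reck ran from arterial through capillary and venous EC to pericytes, fenestrated EC and SMC, with venous EC and pericytes (adjusted p = 0.0962, exact permutation test) and fenestrated EC and SMC (adjusted p = 0.268) not separated. Lef1 ran from venous through capillary and arterial EC to pericytes, fenestrated EC and SMC, of which the last pair was not separated (adjusted p = 0.0695, permutation test). Axin2 began with capillary EC, pericytes, arterial and venous EC, with no neighbours among them separated (adjusted p = 0.220, 0.813 and 0.151, permutation test), and ended with SMC and fenestrated EC. Apcdd1 ran from capillary and venous EC to pericytes, arterial EC, SMC and fenestrated EC, with all neighbours past the threshold.

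Likeness of pattern was described with Pearson's r of log2 CPM over 66 sums (11 mice, 6 types), with the mouse mean subtracted and 5503 genes compared. Sums of 1 mouse share a library, so r is given without a p. Lef1 was most like the fatty acid elongase gene Elovl7 (r = 0.980) and the transporter gene Slco1a4 (r = 0.979), itself 1 of the endothelial markers. Adgra2 and Axin2 were most like each other (r = 0.950), followed by Cobll1 (r = 0.941) for Adgra2 and Tnfrsf19 (r = 0.946) for Axin2. Fzd6 was most like Cgnl1 (r = 0.984), a junction gene, and Adgre5 (r = 0.951).

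Tspan12 was most like Rbp7 (r = 0.939) and Btnl9 (r = 0.939), both among the leading genes of the main fenestrated cluster. Lrp5 was most like the plakoglobin gene Jup (r = 0.956) and Hmbox1 (r = 0.924), and Fzd4 like Tspan9 (r = 0.917) and Irf2bpl (r = 0.895). The closest genes were Gpcpd1 (r = 0.917) and Sgms2 (r = 0.912) for Lrp6, Lmo7 (r = 0.903) and Glul (r = 0.902) for Reck, and Abhd2 (r = 0.929) and Mt2 (r = 0.928) for Apcdd1. Among pairs of the 10 genes, r was lowest for Axin2 and Tspan12 (-0.925).

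Mutant and control mice were then compared within each cell type. None of the 10 genes was called in any of the 7 sums, and in barrier EC their log2 fold changes lay between -0.05 (Fzd6, SE 0.08) and 0.10 (Reck, SE 0.12). In barrier EC edgeR called 0 of 12457 genes (0%), 149 genes and none of the 10 had an unadjusted p under 0.05, and DESeq2 called 0. Lef1 in barrier EC was 1048, 989, 998, 914, 1072 and 799 CPM in R182C-TgN3 mice 1 to 6 and 932, 835, 1025, 1076 and 1035 in WT-TgN3 mice 1 to 5. The lowest value belonged to a mutant and the highest to a control mouse, and the groups overlapped.

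Axin2 in barrier EC was 71.3, 93.99, 81.7, 99.004, 116 and 89.9 CPM in R182C-TgN3 mice 1 to 6 and 91.8, 81.5, 87.1, 92.3 and 87.9 in WT-TgN3 mice 1 to 5, with both extremes among the mutants. Apcdd1 was 268 ± 34.1 CPM in R182C-TgN3 (SD, n = 6) and 271 ± 15.7 in WT-TgN3 mice (SD, n = 5). For the receptor gene Fzd4 the means were 93.6 ± 15.2 and 91.2 ± 5.51, and for Adgra2 115 ± 11.8 and 118 ± 8.33 CPM. These differences were smaller than the SD of the mutant mice. The p-values cover the spread between these mice only. Genotype was the sole term of the fit, so this spread includes differences of age, batch and sex.

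By segment, the 10 genes lay between -0.06 and 0.24 in capillary, -0.07 and 0.17 in arterial and -0.09 and 0.20 in venous EC, with Reck highest in capillary and venous EC. There edgeR called 0 of 10990, 0 of 10506 and 0 of 11290 genes (0% each), 235, 185 and 211 genes and none of the 10 had an unadjusted p under 0.05, and DESeq2 called 1 (Trpm3), 0 and 0. In fenestrated EC 9 of the 10 genes passed the filter on low counts, all but Axin2, and lay between -0.21 (Reck, SE 0.21) and 0.66 (Lef1, SE 0.49). Lef1 in these cells was 87.98 CPM in R182C-TgN3 mouse 5, 8.002 to 34.2 in the other mutants and 8.82 to 38.5 in WT-TgN3 mice. There edgeR called 0 of 8631 genes (0%), 287 genes and none of the 10 had an unadjusted p under 0.05, and DESeq2 called 0.

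In SMC 1 of 8914 genes was called (0.0112%), the human NOTCH3 transgene, while DESeq2 called 1 (NOTCH3) and 227 genes had an unadjusted p under 0.05. Fzd4 was the single gene of the 10 among the latter, with 47.98 ± 7.01 CPM in R182C-TgN3 (SD, n = 6) and 60.7 ± 5.82 in WT-TgN3 mice (SD, n = 5). Its log2 fold change was -0.30 (SE 0.12, adjusted p = 0.9996, edgeR). Lef1 in SMC had the widest value, 0.88 (SE 0.69), which was -0.03 without R182C-TgN3 mouse 6, the mouse with most endothelial RNA in its SMC. In pericytes 1 of 4567 genes was called (0.0219%), again human NOTCH3, DESeq2 called 2 (Irf1 and NOTCH3), and 224 genes and none of the 10 had an unadjusted p under 0.05. The 9 genes tested in pericytes, all but Fzd4, lay between -0.35 (Tspan12, SE 0.21) and 0.18 (Lrp6, SE 0.24). Of the wider Wnt list, edgeR called 0 of 58 other genes in barrier EC, 0 of 34 in fenestrated EC, 0 of 43 in SMC and 0 of 24 in pericytes.

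**Figure D5:**
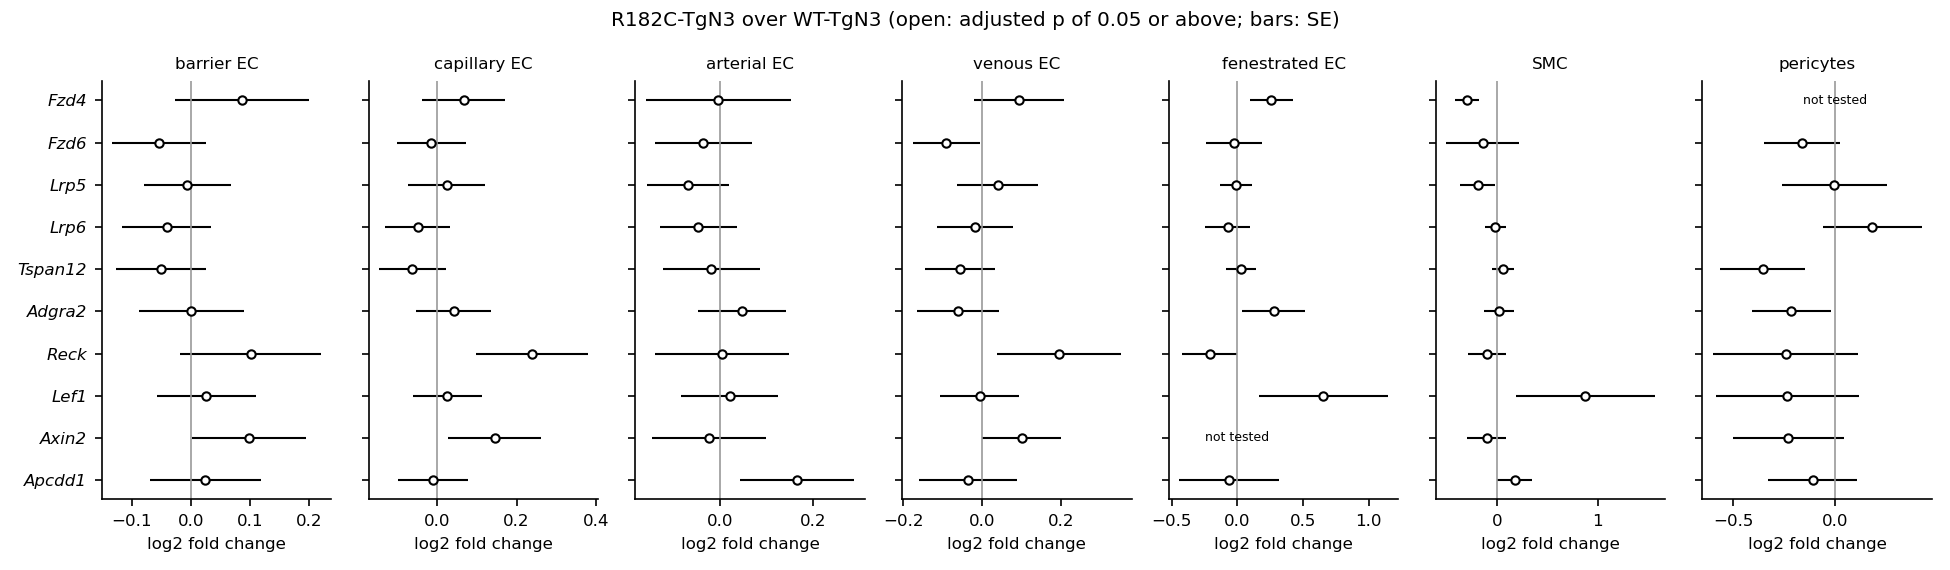
Log2 fold change of each gene in R182C-TgN3 over WT-TgN3 mice (x axes, each scaled to its panel) in 7 sums of cells, with bars for the SE over 6 and 5 mice and open points for an adjusted p of 0.05 or above (edgeR). All points are open, and they lie between -0.05 and 0.10 in barrier EC.

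Finally, the genotype difference was compared between ages and between endothelial types. For age in barrier EC, as the difference at 9 months minus that at 6 months, the 10 genes lay between -0.33 (Axin2, SE 0.16) and 0.25 (Reck, SE 0.24). There edgeR called 0 of 13068 genes (0%), DESeq2 called 0, and 206 genes and none of the 10 had an unadjusted p under 0.05. For fenestrated minus barrier EC, the 10 genes lay between -0.27 (Reck, SE 0.23) and 0.65 (Lef1, SE 0.47). The Lef1 value includes the high fenestrated level of R182C-TgN3 mouse 5 (87.98 CPM). There edgeR called 0 of 11848 genes (0%), DESeq2 called 0, and 413 genes and none of the 10 had an unadjusted p under 0.05.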

How the data were processed

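The deposited files hold raw UMI counts per gene and cell barcode for each of 11 mice, which the authors made with Cell Ranger 7.0.0 against the mm10 transcriptome with human NOTCH3 added. Whether intronic reads were counted is not given in the sources used here. A barcode counted as a cell when it had 500 or more genes and no more than 10% of its UMIs from mitochondrial genes, 3046 were removed as doublets by similarity to simulated doublets, and the rest were clustered on 2000 variable genes and 30 principal components. Clusters were named from marker lists, and the thresholds of the naming rule were chosen after clusters were seen. EC were gated into subtypes by marker scores. Kept cells had median depths of 3510 to 7639.5 UMIs per library.

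Counts were summed per mouse and type where a mouse had at least 20 cells, and tested, without ribosomal protein, mitochondrial, Gm and Rik genes, with edgeR 4.0.16 (quasi-likelihood, filterByExpr, TMM) in R 4.3.3, with DESeq2 1.42.0 as an alternative, and mouse as a block between cell types. The code was tested on simulated data. Mice are the replicates. Other alternatives were another normalization, no filter on low counts, all genes, stricter cell and gate limits, subclusters as subtypes, cells without UMIs of other vascular classes, batch, sex or replicate number in the fit, 1 age or genotype alone, and leaving out each mouse. Another 4 were chosen after seeing the data: leaving out the second fenestrated cluster, cells over 3 times their library's median UMIs, barcodes found in more than 1 library, and TMM. The 10 genes and all lists were chosen with earlier results of these data known. Named in addition were the 4 largest rises and falls among called genes of the wider Wnt list in each comparison, the 2 genes most like each of the 10, and NOTCH3. Trpm3, Irf1 and a few other ligand and receptor genes were named after their values were seen. The SE of a log2 fold change is its size divided by the square root of the F statistic. Cells were handled in Python 3.11.15 (scikit-learn 1.9.0, pandas 2.3.3, scipy 1.17.1, numpy 2.4.6).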

Additional observations from a re-analysis of the deposited data

Results flagged for a closer look

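In 120 groups of 5 or 6 mice (each gene, cell type and genotype), 4 values stood apart from the rest of their group by Dixon's 95% limit, which chance passes in about 1 of 20 groups. Lrp5 in capillary EC was 71.5 CPM in R182C-TgN3 mouse 4, where the next value was 60.2 and the lowest 53.7. Adgra2 in arterial EC was 106 CPM in WT-TgN3 mouse 5, below the next value of 119.7 and the highest of 124. Reck in fenestrated EC was 45.97 CPM in R182C-TgN3 mouse 1, above 32.8 and a lowest value of 25.5. Lef1 in fenestrated EC was 87.98 CPM in R182C-TgN3 mouse 5, above 34.2 and a lowest value of 8.002.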

How the results depend on the processing

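Of 1819 alternative values for 70 differences of the 10 genes between cell types, 1745 kept their direction and side of the threshold, 27 fell below it, 16 passed it and 31 changed sign. No genotype call on the 10 genes appeared in 251 alternative counts. Of the values that changed sign, Reck alone had been called. In cells without UMIs of other vascular classes, Reck for SMC over pericytes was 0.19, Fzd6 for arterial over capillary EC -0.0660, and in pericytes over barrier EC Lrp6 was 0.0535, Axin2 0.0616 and Lrp5 -0.11. With subclusters as subtypes, arterial over capillary EC gave -0.0471 for Tspan12 and -0.0242 for Fzd6, and Lrp5 in pericytes -0.0457. Without cells of high UMIs, venous over capillary EC gave -0.0325 for Tspan12 and -0.0348 for Lrp6, arterial over venous EC 0.0963 for Tspan12 and 0.0603 for Adgra2, and Lrp5 in pericytes -0.0309. In R182C-TgN3 mice alone, arterial over venous EC gave 0.00402 for Tspan12 and 0.0194 for Adgra2. In WT-TgN3 mice alone, pericytes over barrier EC gave 0.00313 for Axin2 and -0.0180 for Lrp5. Axin2 there was 0.0491 with the stricter gate, and Lrp5 -0.0597 without the filter, -0.11 with at least 50 cells and -0.0458 with at least 1000 genes per cell. Leaving out 1 mouse gave -0.0496 to 0.00577 for Tspan12 in arterial over venous EC (positive without R182C-TgN3 mouse 5, WT-TgN3 mouse 2, WT-TgN3 mouse 4), -0.0426 to 0.10 for Lrp5 in pericytes (negative without R182C-TgN3 mouse 1, R182C-TgN3 mouse 2, R182C-TgN3 mouse 4, R182C-TgN3 mouse 5, R182C-TgN3 mouse 6, WT-TgN3 mouse 3, WT-TgN3 mouse 5) and -0.0269 to 1.21 for the genotype difference of Lef1 in SMC. Of the 10 genes, 5 were called for venous over capillary EC (8 mice) and 5 of 9 tested for SMC over pericytes (6 mice) in cells without other classes, where fewer cells and mice remained, and 4 for pericytes in WT-TgN3 mice alone. Of all genes tested in cells without other classes, 1873 of 7079 (fenestrated, 7 mice), 2102 of 5229 (arterial over capillary) and 1624 of 6875 (venous over capillary) were called. So were 1712 of 5134 (arterial over venous), 3198 of 6426 (pericytes) and 2556 of 5152 (SMC over pericytes). In WT-TgN3 mice alone the counts were 3799 of 11321, 3504 of 11155 and 2517 of 6601 for fenestrated EC, pericytes and SMC over pericytes. For venous over capillary EC without cells of high UMIs the count was 4274 of 10127. Genotype counts were 1 in capillary EC by DESeq2, and in pericytes 2 by DESeq2, 7 without the filter, 0 with at least 50 cells, 2 without cells of high UMIs, 10 at 9 months alone and 1 to 3 without 1 mouse, the highest without WT-TgN3 mouse 1. Causes were not tested where none is named. Deviations of same-numbered mice within an age correlated at -0.0799 to 0.419 in barrier EC. Differently numbered mice were not compared, so these values cannot show whether the numbers pair the mice. With a replicate block 0 of the 10 genes were called in each type. Pericytes, with as few as 23 cells in a mouse, limit the depth most.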
